A study of Arabidopsis thaliana with 34 samples.

Results

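The transcripts of 4 cold-regulated genes of Arabidopsis thaliana were followed in leaves through sub-zero acclimation: COR15A (AT2G42540), COR15B (AT2G42530), COR47 (AT1G20440) and LTI30 (AT3G50970). Each was chosen by name, with earlier results of these data known. Each had 1 probe set annotated to it alone among the 22746 tested on the Affymetrix ATH1 array. They are 4 of the 13355 genes with such a probe set. Leaves came from the natural accessions Tenela (Te), Rschew (Rsch) and Columbia-0 (Col). All plants grew for 42 days at 20 °C by day and 18 °C by night and were then cold acclimated for 14 days at 4 °C with a 16-h day at 90 µmol m-2 s-1. Leaves of such plants were detached and held supercooled in water-filled tubes at -3 °C, with sampling after 8 h, after 1 d and after 3 d, and cold acclimated leaves taken before this step are the baseline. Every array measured a pool of 3 leaves from 3 plants, and the 12 groups held 3 arrays apiece, with the exception of the 8 h and 3 d groups of Col, which held 2. No plants kept out of the cold are among the groups, so no change from the warm-grown state is measured here. Leaves at -3 °C were cut off and kept dark, whereas the baseline leaves came from intact plants in a light cycle, so temperature, detachment and darkness cannot be told apart. Values are log2 intensities, a difference of 1 being a doubling, and changes are differences of log2 values. In a leaf, fewer cells holding a transcript and less transcript per cell cannot be told apart either.

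COR15A and COR15B are small late embryogenesis abundant (LEA) proteins of the chloroplast stroma that fold when water is withdrawn and stabilise chloroplast membranes during freezing. COR47 and LTI30 (also called XERO2) are dehydrins, LEA proteins with lysine-rich K-segments. COR47 is an acidic dehydrin, and LTI30 is a basic, histidine-rich one that binds membranes. All of these genes belong to the cold regulon of the CBF transcription factors, which bind C-repeat elements in promoters, and are strongly induced when plants are first moved to the cold. COR15A and COR15B are neighbours on chromosome 2 with similar sequences, so their probe sets may share some signal, which was not tested. The probes follow the Columbia-0 sequence, so a lower signal in Te or Rsch can also come from sequence differences under the probes, which was not tested.

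The 34 arrays had medians of 5.97 to 6.22 log2, and their number limits the precision. Some arrays stood apart when each was set against the means of the groups over all probe sets. The array labelled Col cold acclimated replicate 3 had a correlation of 0.30 with the rest of its own group, against 0.527 to 0.734 for the other cold acclimated arrays. Rsch 8 h replicate 3, Te 1 d replicate 1 and Te 3 d replicate 1 were closer to another time of their own accession by over 0.1. Te 1 d replicate 1 had a correlation of 0.123 with its own group and 0.616 with Te 3 d. For Te 3 d replicate 1 these values were 0.41 with its own group and 0.638 with Te 1 d. Whether the labels of these arrays were exchanged was not tested, and the Te results at 1 d and 3 d carry this doubt. The bioC hybridization control split the arrays into a set of 9, made up of the arrays numbered 1 at baseline, 1 d and 3 d, and a set of 25. Some of the results are also given without a doubted array or within these sets. The log2 signal of actin at the 3′ end minus that at the 5′ end, which reads RNA and labelling quality, averaged 2.58 ± 0.23 in the 9 cold acclimated arrays (SD), and 2.27 ± 0.22, 2.36 ± 0.27 and 2.52 ± 0.35 in the 8, 9 and 8 arrays of 8 h, 1 d and 3 d. This value also differed between the bioC sets, averaging 2.82 in the set of 9 and 2.30 in the set of 25. All 8 h arrays were in the set of 25, so the averages by condition mix the sets. Of 10 leaf mesophyll markers 4 were measured here, all high, and the log2 of their summed level ranged over 12.69 to 13.94 in cold acclimated leaves and 11.56 to 12.90 at 3 d. The root marker PYK10 stood at the 12.2nd percentile of all probe sets. The part of these differences in the results below was not tested.

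Averaged over the accessions, COR47 was the only one of the 4 genes called after 8 h, and COR47, COR15B and LTI30 all rose by 1 d and were still higher at 3 d, while COR15A was not called at any time. A gene is called where limma's test across all probe sets gave a Benjamini-Hochberg adjusted p under 0.05. Thus 1 of the 4 was called higher at 8 h, against 3.36% of all probe sets, 3 of 4 at 1 d, against 9.73%, and 3 of 4 at 3 d, against 15.9%. None of the 4 was called lower. Between 8 h and 1 d only COR15B was called higher (1 of 4, against 2.91% of all probe sets). Between 1 d and 3 d none of the 4 was called in either direction, against 4% of all probe sets, and their unadjusted p values ran from 0.144 to 0.801.

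**Figure D1:**
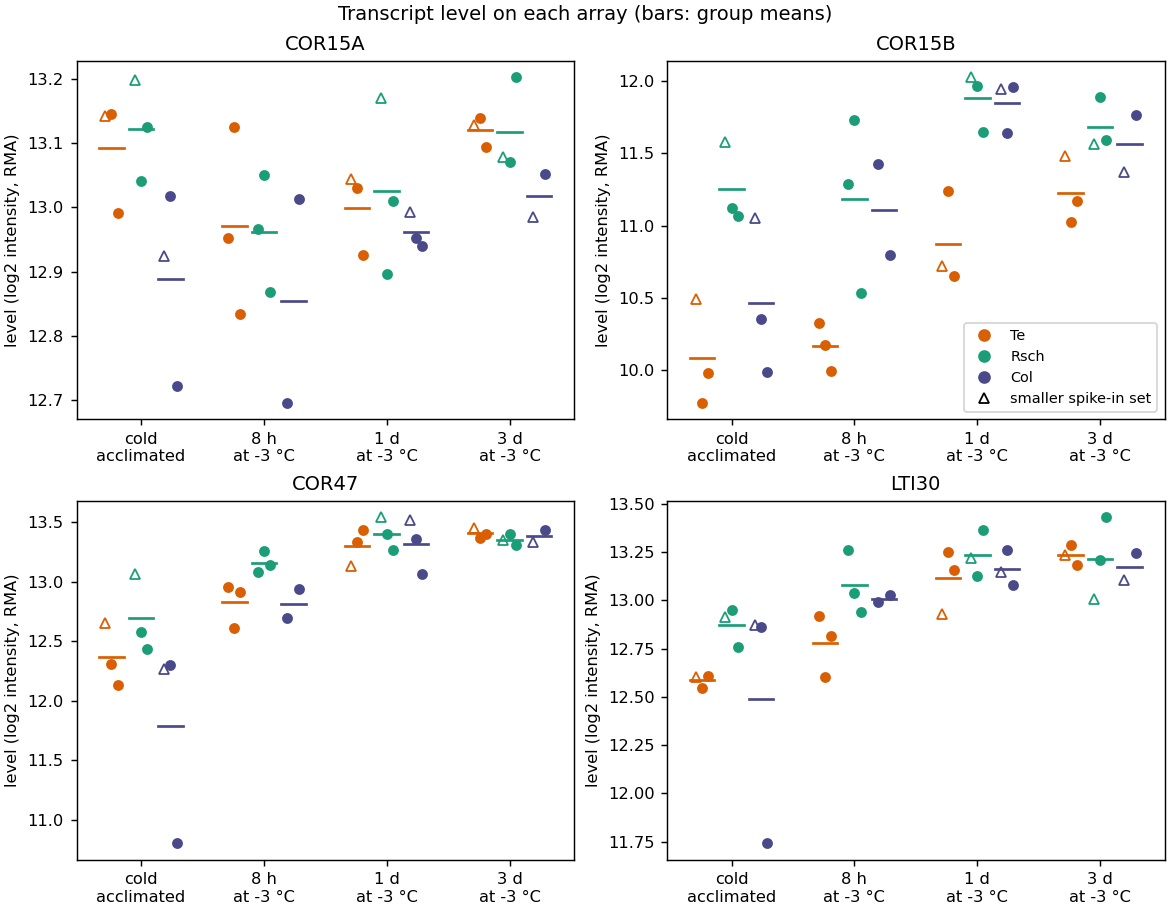
Level on each array (log2 intensity, y axis) of COR15A, COR15B, COR47 and LTI30 by condition (x axis) in Te, Rsch and Col. Points are arrays, triangles are arrays of the smaller spike-in set and bars are group means. The y axes differ and do not start at 0, and COR15A spans 12.70 to 13.20 while COR47 spans 10.80 to 13.54.

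COR47 was called higher at all 3 times. In Te it stood at 12.65, 12.31 and 12.13 log2 in cold acclimated leaves, 12.96, 12.61 and 12.91 at 8 h, 13.13, 13.33 and 13.43 at 1 d, and 13.46, 13.37 and 13.40 at 3 d. In Rsch the levels were 13.07, 12.58 and 12.43 when cold acclimated, 13.08, 13.26 and 13.14 at 8 h, 13.54, 13.40 and 13.27 at 1 d, and 13.35, 13.40 and 13.31 at 3 d. In Col they were 12.27, 12.30 and 10.80 when cold acclimated, 12.69 and 12.94 at 8 h, 13.52, 13.36 and 13.06 at 1 d, and 13.34 and 13.44 at 3 d. Within every accession all 1 d and 3 d arrays lay above all cold acclimated ones, while at 8 h the Te arrays overlapped with their baseline and those of Rsch and Col did not. The lowest of all 34 values was that of Col cold acclimated replicate 3. Averaged over accessions, COR47 rose by 0.65 ± 0.15 log2 at 8 h (SE, 8 arrays against 9; limma adjusted p = 0.00746), 1.06 ± 0.14 at 1 d (adjusted p = 4.85e-06) and 1.10 ± 0.15 at 3 d (adjusted p = 3.09e-06). These are linear folds of 1.57, 2.08 and 2.15. Without Col cold acclimated replicate 3 the 3 changes were 0.49, 0.89 and 0.94, all called. The 8 h call was lost when only the 8 h and cold acclimated arrays were fitted (adjusted p = 0.0669). Within the 25 arrays of the larger spike-in set the changes were 0.84, 1.22 and 1.30, all called. Within the smaller set, with 1 array per group and no 8 h array, they were 0.73 at 1 d and 0.72 at 3 d and were not called (adjusted p = 0.109 and 0.0959).

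The spread of COR47 over arrays was widest at baseline and narrowest at the end. Its 9 cold acclimated arrays spanned 2.26 log2 (0.93 without Col replicate 3), the 8 arrays at 8 h 0.64, the 9 at 1 d 0.48 and the 8 at 3 d 0.14. The SD over all arrays of a time was 0.62, 0.22, 0.16 and 0.05 in that order. LTI30 spanned 1.21 (0.41 without Col replicate 3), 0.65, 0.43 and 0.42, so without that array its baseline was no wider than its later times. No test was made of these spreads. Both probe sets lay near the top of the scale, with 0.0044% to 2.47% of the probe sets of an array brighter than COR47 and 0.0044% to 0.717% brighter than LTI30. Whether they were saturated was not tested, nor what part this had in their folds, in the narrow spread at 3 d or in the like 3 d levels of the accessions.

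LTI30 rose less, and its baseline was already at least 12.54 log2 on all cold acclimated arrays but that of Col replicate 3. In Te it stood at 12.60, 12.54 and 12.61 log2 in cold acclimated leaves, 12.92, 12.60 and 12.81 at 8 h, 12.93, 13.25 and 13.16 at 1 d, and 13.24, 13.28 and 13.18 at 3 d. In Rsch the levels were 12.91, 12.95 and 12.76 when cold acclimated, 13.26, 13.04 and 12.94 at 8 h, 13.22, 13.13 and 13.36 at 1 d, and 13.01, 13.21 and 13.43 at 3 d. In Col they were 12.87, 12.86 and 11.74 when cold acclimated, 12.99 and 13.03 at 8 h, 13.15, 13.26 and 13.08 at 1 d, and 13.11 and 13.24 at 3 d. All 1 d and 3 d arrays of an accession lay above its baseline arrays, and at 8 h the groups overlapped in Te and Rsch. The averaged change was 0.31 ± 0.11 log2 at 8 h (SE; limma adjusted p = 0.109), 0.52 ± 0.11 at 1 d (adjusted p = 0.000733) and 0.56 ± 0.11 at 3 d (adjusted p = 0.000328), linear folds of 1.43 and 1.47 for the last 2. At 8 h LTI30 was called with quantile normalization (0.36, adjusted p = 0.0499) and without Col cold acclimated replicate 1 (0.37, 0.0478) or replicate 2 (0.37, 0.0483). Without Col cold acclimated replicate 3 the changes were 0.18, 0.40 and 0.43, of which those at 1 d and 3 d were called. Within the larger spike-in set they were 0.38, 0.63 and 0.69, the last 2 called, and within the smaller set 0.30 at 1 d and 0.32 at 3 d, not called (adjusted p = 0.262 and 0.215).

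COR15B, a chloroplast protectant, was not called at 8 h and rose at 1 d and 3 d. In Te it stood at 10.49, 9.77 and 9.98 log2 in cold acclimated leaves, 10.33, 10.18 and 9.99 at 8 h, 10.72, 11.24 and 10.65 at 1 d, and 11.48, 11.02 and 11.17 at 3 d. In Rsch the levels were 11.58, 11.12 and 11.07 when cold acclimated, 11.29, 11.73 and 10.53 at 8 h, 12.03, 11.97 and 11.65 at 1 d, and 11.57, 11.89 and 11.59 at 3 d. In Col they were 11.05, 10.35 and 9.99 when cold acclimated, 11.42 and 10.79 at 8 h, 11.94, 11.64 and 11.96 at 1 d, and 11.37 and 11.76 at 3 d. At 8 h the groups overlapped in all 3 accessions, at 1 d in none, and at 3 d in Rsch only. The averaged change was 0.22 ± 0.16 log2 at 8 h (SE; limma adjusted p = 0.44; 0.11 to 0.33 over single arrays left out, lowest without Col 8 h replicate 1), 0.93 ± 0.16 at 1 d (adjusted p = 7.6e-05) and 0.89 ± 0.16 at 3 d (adjusted p = 0.000119), linear folds of 1.91 and 1.85 for the last 2. The step between 8 h and 1 d was itself called, at 0.71 ± 0.16 (adjusted p = 0.00926). COR47 and LTI30 had steps of 0.41 ± 0.15 and 0.22 ± 0.11 there (adjusted p = 0.116 and 0.311), and that of COR47 was called without Col cold acclimated replicate 3 (0.41, adjusted p = 0.00698). The 8 h change of COR15B was larger within the larger spike-in set, at 0.94 in Col, 0.09 in Rsch and 0.29 in Te. With all arrays these values were 0.65, -0.07 and 0.08. The smaller set has no 8 h array, and its baseline array was the highest for COR15B in each accession. The part of the set in the 8 h value was not tested. Within the larger spike-in set COR15B changed by 1.14 at 1 d and 1.15 at 3 d, both called, and within the smaller set by 0.52 and 0.43, not called (adjusted p = 0.323 and 0.388).

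COR15A spanned 0.51 log2 over the 34 arrays, against 2.25 for COR15B, 2.74 for COR47 and 1.69 for LTI30. It stood at 12.83 to 13.15 log2 on the 12 Te arrays, 12.87 to 13.20 on the 12 Rsch arrays and 12.70 to 13.05 on the 10 Col arrays. On each array between 0.0088% and 0.114% of the probe sets were brighter, so this probe set lay near the top of the scale in all conditions. The averaged change was -0.11 ± 0.06 log2 at 8 h (SE; limma adjusted p = 0.3; 95% interval -0.23 to 0.02), -0.04 ± 0.06 at 1 d (0.659; -0.16 to 0.08) and 0.05 ± 0.06 at 3 d (0.524; -0.07 to 0.17). Centring each array on its median, which moved the median change of all probe sets by 0.1 at 3 d, gave -0.05, 0.05 and 0.15, so the sign of the 1 d value depends on the scaling. With quantile normalization the 3 d values were -0.078 in Te, -0.085 in Rsch and 0.007 in Col. In the main fit they were 0.027, -0.005 and 0.13, so the sign at 3 d depends on the scaling as well. Whether the probe set was saturated was not tested. As a comparison for bright probe sets, 89 had a cold acclimated mean of at least 12 log2. Of these 4.49%, 8.99% and 14.6% were called higher at 8 h, 1 d and 3 d, and 0%, 23.6% and 40.4% lower. The 89 include COR15A, COR47 and LTI30 themselves. With all arrays, COR47 had the largest rise among them at 8 h and at 1 d, but its changes were smaller without Col cold acclimated replicate 3.

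**Figure D2:**
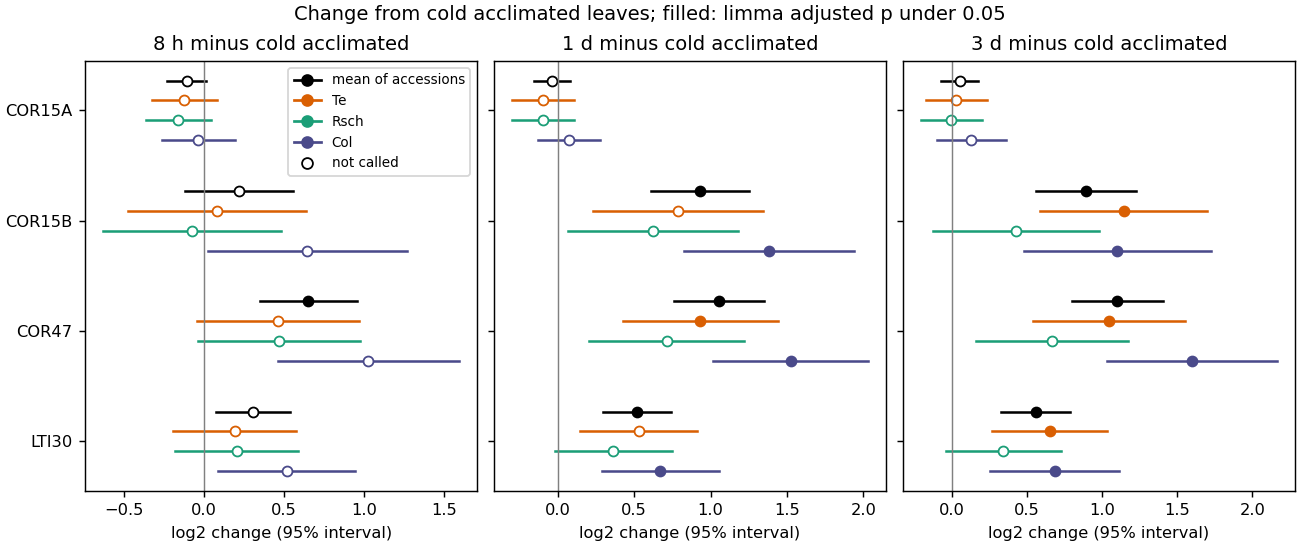
Log2 change from cold acclimated leaves (x axis) of each gene (y axis) at 8 h, 1 d and 3 d, for the mean of the accessions and in Te, Rsch and Col, with 95% intervals from limma. Filled points were called. COR15A lies near 0 in all panels, and the largest change is that of COR47 in Col at 3 d, 1.60.

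Within single accessions the same 3 genes were called in Te and Col and none in Rsch when all 34 arrays were fitted together. At 8 h, 0 of 4 were called in Te, against 0.277% of all probe sets higher, 0 of 4 in Rsch, against 0.906%, and 0 of 4 in Col, against 0.347%. Of the 12 values at 8 h, 3 had an unadjusted p under 0.05, all in Col, with COR47 at 1.03 (adjusted p = 0.135), LTI30 at 0.52 (0.456) and COR15B at 0.65 (0.551). COR47 in Col was called at 8 h without Col cold acclimated replicate 2 (1.28, adjusted p = 0.0415). These 3 Col values were smaller without Col cold acclimated replicate 3, with COR47 at 0.53 (unadjusted p = 0.00747), LTI30 at 0.14 (0.308) and COR15B at 0.41 (0.208), and COR15B was at 0.33 on leaving out another single array, Col 8 h replicate 1. Without Col cold acclimated replicate 3, COR47 at 8 h also had a limma unadjusted p under 0.05 in Te (0.46, 0.0048) and Rsch (0.47, 0.00445). It was called in neither (adjusted p = 0.319 and 0.119). That array enters the Te and Rsch contrasts only through the shared estimate of the spread. In Te, COR47 rose by 0.93 ± 0.25 at 1 d (SE, 3 arrays against 3; limma adjusted p = 0.0309), 1 of 4 against 2.11%. It was not called without Te cold acclimated replicate 2 or 3 or Te 1 d replicate 2 or 3 (0.82 to 0.92, adjusted p = 0.0933 to 0.157). Without Col cold acclimated replicate 3 its adjusted p was 0.000599. At 1 d in Te LTI30 stood at 0.53 ± 0.19 (adjusted p = 0.123) and COR15B at 0.79 ± 0.27 (0.109), not called. LTI30 was called there without Col cold acclimated replicate 3 (0.00754) and with array weights (0.58, 0.0109). COR15B was called there with array weights (0.90, 0.0208). At 3 d in Te COR15B rose by 1.14 ± 0.27 (adjusted p = 0.00614), COR47 by 1.05 ± 0.25 (0.00604) and LTI30 by 0.65 ± 0.19 (0.0212), 3 of 4 against 5.07%. The call of COR47 at 1 d was lost when only the arrays compared were fitted (adjusted p = 0.0531), and that of LTI30 at 3 d with the larger spike-in set alone (0.66, adjusted p = 0.0877) and without Te cold acclimated replicate 2 (0.63, 0.0618) or 3 (0.66, 0.0619) or Te 3 d replicate 2 (0.63, 0.083) or 3 (0.68, 0.0544).

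In Rsch 0 of 4 were called at 1 d, against 3.19% of all probe sets, and 0 of 4 at 3 d, against 4.1%. The values of COR47 there were 0.71 ± 0.25 at 1 d (SE; limma adjusted p = 0.0899; unadjusted p = 0.00768) and 0.66 ± 0.25 at 3 d (0.0888; 0.0124), and those of COR15B were 0.62 ± 0.27 (0.204) and 0.43 ± 0.27 (0.349). COR47 in Rsch was called at both times without Col cold acclimated replicate 3 (adjusted p = 0.00404 and 0.00589), an array that enters the Rsch contrast only through the shared estimate of the spread. It was also called at both times with array weights (0.73, adjusted p = 0.00645, and 0.66, 0.0224). LTI30 in Rsch stood at 0.36 ± 0.19 and 0.34 ± 0.19, and its 1 d value was called without that array (adjusted p = 0.0496).

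In Col at 1 d COR47 rose by 1.52 ± 0.25 log2 (SE, 3 arrays against 3; limma adjusted p = 0.000289), COR15B by 1.38 ± 0.27 (0.00176) and LTI30 by 0.67 ± 0.19 (0.0246), 3 of 4 against 3.71% of all probe sets. At 3 d COR47 rose by 1.60 ± 0.28 (2 arrays against 3; adjusted p = 0.000478), COR15B by 1.10 ± 0.30 (0.0142) and LTI30 by 0.68 ± 0.21 (0.0261), 3 of 4 against 5.93%. These rest on a baseline that includes Col cold acclimated replicate 3, where COR47 and LTI30 were over 1 log2 lower than on its sister arrays. Without it LTI30 was at 0.30 at 1 d (adjusted p = 0.157) and 0.31 at 3 d (0.151), no longer called, and COR15B at 3 d was at 0.86 (0.0772), also not called, while COR47 stayed called at 1.03 and 1.10. LTI30 also lost its call at 1 d without Col 1 d replicate 1 (0.68, adjusted p = 0.0615) or 2 (0.62, 0.0859), and at 3 d without Col 3 d replicate 1 (0.75, 0.0576) or 2 (0.62, 0.222). COR15B at 3 d lost it without Col 3 d replicate 2 (0.91, adjusted p = 0.207). LTI30 at 1 d was also not called with the larger spike-in set alone (0.87, adjusted p = 0.0541) and at 3 d with quantile normalization (0.56, 0.0588), nor at either time with array weights (0.42, 0.0843 and 0.43, 0.152). When only the arrays compared were fitted, the changes in Col of all 3 genes lost their calls at both times (adjusted p = 0.0652 to 0.382).

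**Figure D3:**
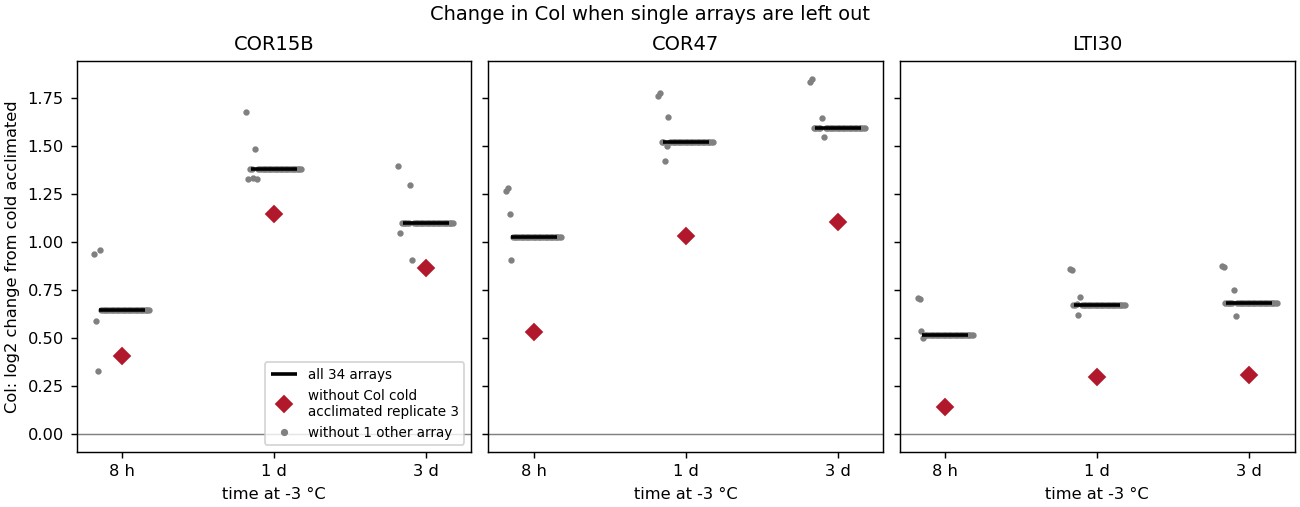
Log2 change from cold acclimated leaves in Col (y axis) of COR15B, COR47 and LTI30 at each time (x axis) with all 34 arrays (black bar), without Col cold acclimated replicate 3 (red diamond) and without any other single array (grey points). The red diamonds of COR47 and LTI30 lie below all other points, with LTI30 at 0.30 against 0.67 at 1 d.

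Whether the changes were of equal size in the accessions was tested directly, and no difference was called. Limma's moderated F test over the accessions called 0 of 4 genes at 8 h, against 0.0044% of all probe sets, 0 of 4 at 1 d, against 0.0264%, and 0 of 4 at 3 d, against 0.0308%. All adjusted p values were 1, and the unadjusted ones ran from 0.0572 for COR47 at 3 d to 0.689, with none under 0.05. The most unequal pair was COR47 in Rsch and Col, whose changes differed by -0.81 ± 0.35 log2 at 1 d (95% interval -1.53 to -0.10; unadjusted p = 0.028, adjusted p = 1) and -0.93 ± 0.37 at 3 d (-1.69 to -0.18; 0.018 and 1). Without Col cold acclimated replicate 3 they differed by -0.32 ± 0.22 at 1 d and -0.44 ± 0.23 at 3 d (unadjusted p = 0.168 and 0.0739). So the calls in Te and Col and their absence in Rsch do not show that Rsch differed.

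The accessions did differ in the level of COR15B. Averaged over the conditions COR15B was lower in Te than in Rsch by 0.91 log2 (-0.91 ± 0.14 SE, 12 arrays each; limma adjusted p = 1.35e-05) and lower in Te than in Col (-0.66 ± 0.14, 12 arrays against 10; adjusted p = 0.00106), with Rsch and Col at 0.25 ± 0.14 (0.228). The order of the levels was Te, Col and Rsch from low to high, and the neighbours Col and Rsch did not differ beyond their spread. For COR15A, COR47 and LTI30 no averaged difference was called. The counts were 1 of 4 between Te and Rsch, against 22.2% of all probe sets in either direction, 1 of 4 between Te and Col, against 25.4%, and 0 of 4 between Rsch and Col, against 22.1%, so a share of 1 in 4 is close to that of all probe sets. For Rsch against Col, COR15A at 0.13 ± 0.05 (adjusted p = 0.0878) and COR47 at 0.33 ± 0.13 (0.076) had unadjusted p of 0.0235 and 0.0192. COR15A was called there without Col 8 h replicate 2 (0.17, 0.0307) and COR47 without Col cold acclimated replicate 1 (0.39, 0.03) or 2 (0.39, 0.0262), while without replicate 3 of that group COR47 was at 0.20 (0.075). COR15A was also called in Te against Col without Col 8 h replicate 2 (0.16, 0.0392), against 0.12 with all arrays. LTI30 in Te against Rsch stood at -0.17 and was called without Col cold acclimated replicate 3 (adjusted p = 0.0263).

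Condition by condition, the lower COR15B of Te was called until 1 d and not at 3 d. In cold acclimated leaves it averaged 10.08 ± 0.37 log2 in Te and 11.26 ± 0.28 in Rsch (SD, n = 3 each), a difference of -1.17 ± 0.27 (SE; limma adjusted p = 0.0106), and the arrays did not overlap. This was 1 of 4 genes, against 3.58% of all probe sets. At 8 h the averages were 10.17 ± 0.17 in Te and 11.18 ± 0.61 in Rsch, a difference of -1.02 ± 0.27 (adjusted p = 0.0276), 1 of 4 against 4.4%. At 1 d they were 10.87 ± 0.32 in Te and 11.88 ± 0.20 in Rsch, a difference of -1.01 ± 0.27 (adjusted p = 0.0311), 1 of 4 against 4.08%. At 3 d they were 11.23 ± 0.23 in Te and 11.68 ± 0.18 in Rsch, a difference of -0.46 ± 0.27 (adjusted p = 0.451), 0 of 4 against 4.59%. That the difference narrowed is not shown, since the 3 d changes of the accessions were not called different (0.72 ± 0.38 for Te minus Rsch; adjusted p = 1). The cold acclimated call was lost without Rsch replicate 1 (-1.01, 0.0827) or Te replicate 2 (-1.02, 0.0782) or 3 (-1.12, 0.0566). The 8 h call was lost without Rsch replicate 1 (-0.97, 0.102) or 2 (-0.75, 0.184) or Te replicate 2 (-1.02, 0.0818) or 3 (-0.93, 0.12). The 1 d call was lost without Rsch replicate 1 (-0.93, 0.135) or 2 (-0.96, 0.113) or Te replicate 1 (-0.93, 0.119) or 3 (-0.90, 0.141). Without both Te 1 d replicate 1 and Te 3 d replicate 1, the difference was -0.93 at 1 d (adjusted p = 0.118) and -0.58 at 3 d (0.372), neither called. Without the 4 arrays that stand apart, a choice made after seeing the data, the differences were called in all conditions but 3 d. They were -1.17 in cold acclimated leaves (adjusted p = 0.00254), -1.34 at 8 h (0.00241), -0.93 at 1 d (0.0416) and -0.58 at 3 d (0.219).

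Set against Col, the lower COR15B of Te was called at 1 d only in the main fit. The difference was -0.38 ± 0.27 log2 in cold acclimated leaves (limma adjusted p = 0.516), -0.94 ± 0.30 at 8 h (0.0803), -0.98 ± 0.27 at 1 d (0.0292) and -0.34 ± 0.30 at 3 d (0.694). The counts of genes called were 0 of 4, against 5.5% of all probe sets, 0 of 4 against 4.08%, 1 of 4 against 6.11% and 0 of 4 against 4.7%. At 8 h and 1 d all Te arrays lay below all Col arrays. The cold acclimated difference depended on single arrays, at -0.62 without Col replicate 3, -0.59 without Te replicate 1, -0.23 without Te replicate 2 and -0.09 without Col replicate 1, none called. Over single arrays left out, the difference ranged over -1.26 to -0.63 at 8 h, the smallest without Col 8 h replicate 1. The 3 d difference was -0.54 without Col 3 d replicate 1 and -0.14 without Col 3 d replicate 2. The 8 h difference was called without Rsch 8 h replicate 3 (adjusted p = 0.0455) and with array weights (-0.95, 0.0369). It was also called without the 4 arrays that stand apart (-0.94, 0.0293). The 1 d call was lost without Col replicate 1 (-0.93, 0.0841) or 3 (-0.92, 0.102) or Te replicate 1 (-0.90, 0.112) or 3 (-0.87, 0.12). Both 1 d calls of Te and the cold acclimated one against Rsch were also lost with the larger spike-in set fitted alone (adjusted p = 0.172, 0.239 and 0.0506). All 4 of these calls of Te were lost when only the arrays compared were fitted (0.0503 to 0.159).

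Rsch against Col had 1 called difference, in COR47 before the sub-zero step. In cold acclimated leaves COR47 averaged 12.69 ± 0.33 log2 in Rsch and 11.79 ± 0.86 in Col (SD, n = 3 each), a difference of 0.90 ± 0.25 (SE; limma adjusted p = 0.0295), 1 of 4 against 4.9% of all probe sets. Without Col replicate 3 it was 0.41 (adjusted p = 0.195) and without Rsch replicate 1 it was 0.72 (0.217), neither called. Nor was it called with array weights (0.55, adjusted p = 0.0715), with the larger spike-in set alone (0.96, 0.153) or when only the arrays compared were fitted (0.427). COR15B differed by 0.79 ± 0.27 (0.0981) and was called without Col replicate 1 (1.09, 0.0257). At 8 h, 1 d and 3 d, 0 of 4 were called, against 3.75%, 3.77% and 5%, with the smallest unadjusted p at 0.224. At 3 d COR47 averaged 13.41 ± 0.04 in Te, 13.35 ± 0.05 in Rsch and 13.39 ± 0.07 in Col, which do not differ beyond their spread.

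**Figure D4:**
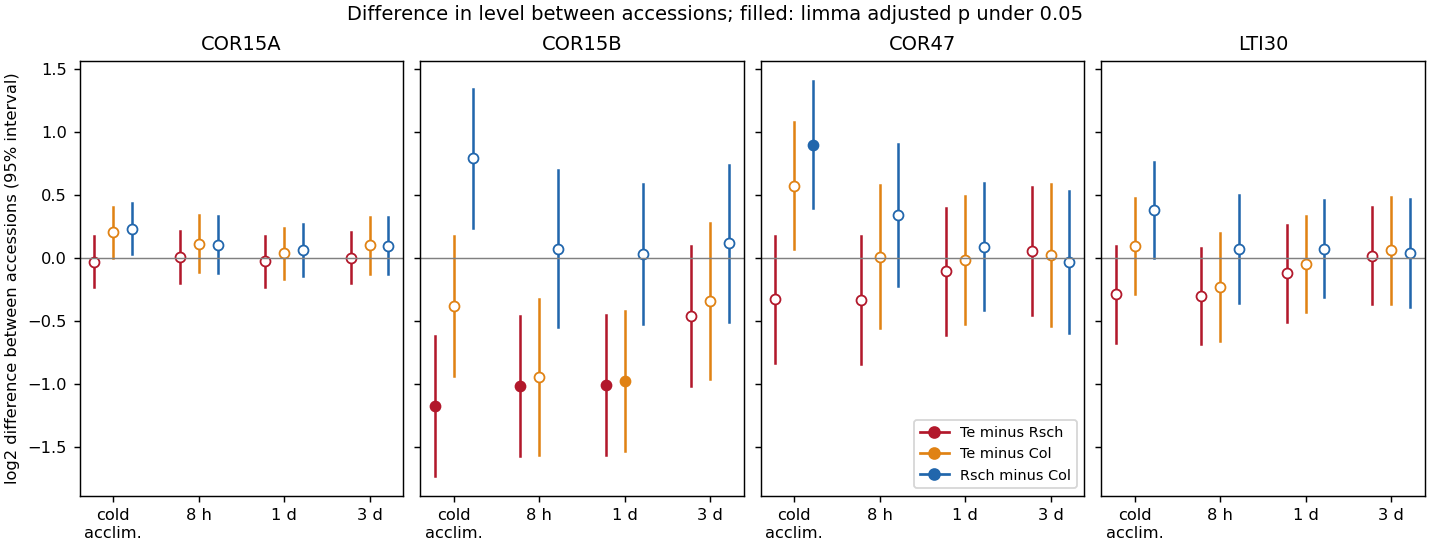
Log2 difference in level between accessions (y axis) by condition (x axis) for COR15A, COR15B, COR47 and LTI30, with 95% intervals from limma. Filled points were called. Those for COR15B lie between -0.98 and -1.17, and COR47 in cold acclimated Rsch minus Col is at 0.90.

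Over the 12 group means the dehydrins COR47 and LTI30 had the highest likeness, and COR15A had little likeness to the others. Pearson's r was 0.964 between COR47 and LTI30, 0.838 between COR15B and LTI30, 0.719 between COR15B and COR47, and 0.166 to 0.324 between COR15A and the other 3. The group means share their arrays, normalization and the doubted Col baseline array, so these are descriptions and carry no test. Among the other probe sets with 1 named gene, those most like COR47 were AT4G33980 (0.986), AT4G18070 (0.969) and LTI30 (0.964). Those most like LTI30 were AT1G53035 (0.965), COR47 and AT4G18070 (0.963), and those most like COR15B were AT5G17650 (0.935), AT2G46140 (0.931) and AT3G28310 (0.913). For COR15A they were AT1G69950 (0.922), AT5G59240 (0.915) and AT1G32580 (0.915), over a range of COR15A group means of only 12.85 to 13.12 log2.

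Other genes of the cold regulon and of the LEA families were set beside the 4. Of 22 COR and LTI list genes 8 were measured here, meaning that they had a probe set annotated to that gene alone, and 4 of these were not among the 4 genes above. Of those other 4, 1, 2 and 3 were called higher at 8 h, 1 d and 3 d and 0 lower, beside 3.36%, 9.73% and 15.9% higher and 2.59%, 15.5% and 21% lower among all probe sets. AT4G33980 rose by 1.85 ± 0.41, 2.70 ± 0.40 and 2.84 ± 0.41 log2 (SE; limma adjusted p = 0.00656 at 8 h), and the 8 h call was lost without Col 8 h replicate 1 (1.55, 0.0555). COR27, a cold- and light-responsive regulator tied to the clock, stood at 0.57 ± 0.22 at 8 h (0.33 without Col cold acclimated replicate 3, and called at 0.73 without Col cold acclimated replicate 1, adjusted p = 0.0346) and rose by 1.26 ± 0.21 and 1.56 ± 0.22 at 1 d and 3 d. AT4G30650 rose at 3 d by 0.41 ± 0.16 (adjusted p = 0.0417), a call that did not hold without any 1 of 12 arrays (adjusted p as high as 0.108). The median change of the whole list of 8 was 0.26, 0.73 and 0.72 at the 3 times, against -0.0007, -0.0014 and 0.03 for all probe sets.

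**Figure D5:**
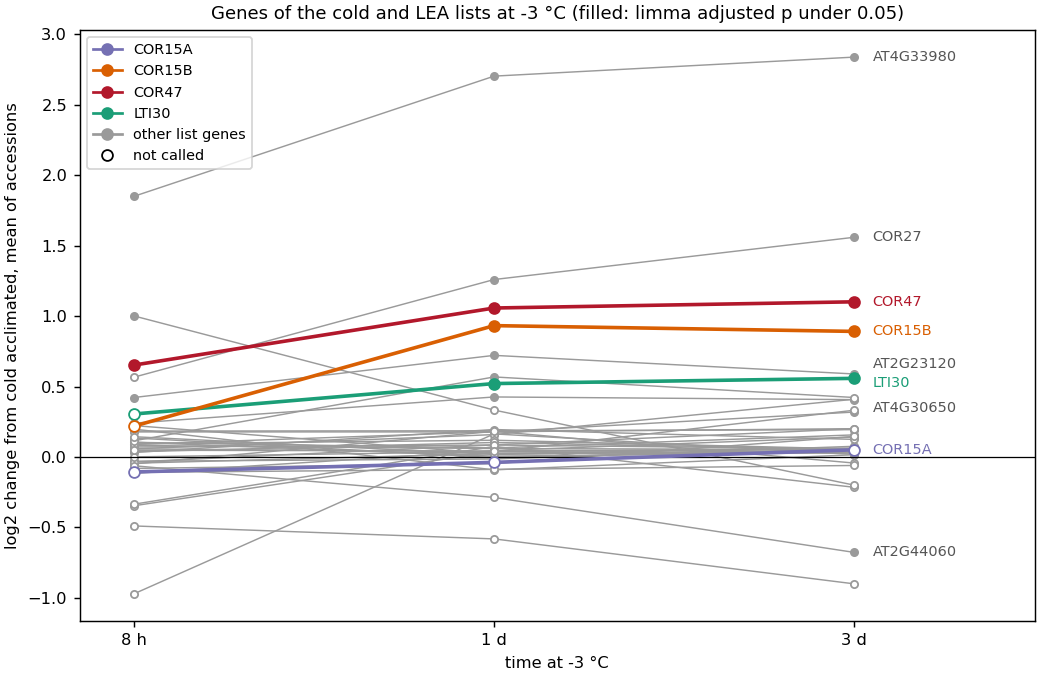
Log2 change from cold acclimated leaves, averaged over accessions (y axis), at each time (x axis) for the 40 measured genes of the cold and LEA lists. COR15A, COR15B, COR47 and LTI30 are coloured, other genes grey, and filled points were called. COR47 lies at 1.10 at 3 d, below AT4G33980 at 2.84 and COR27 at 1.56.

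Of 10 dehydrin genes 6 were measured, and apart from COR47 and LTI30 0, 1 and 2 of 4 were called higher at 8 h, 1 d and 3 d, beside 3.36%, 9.73% and 15.9% of all probe sets, and 0 lower. AT4G38410 rose by 0.43 ± 0.10 log2 at 1 d and 0.41 ± 0.10 at 3 d (SE; limma adjusted p = 0.00192 and 0.0025), from a low mean of 4.41 in cold acclimated leaves. AT4G39130 rose at 3 d by 0.32 ± 0.08 (adjusted p = 0.0016) from 3.46. All 6 measured dehydrins, COR47 and LTI30 included, had medians of 0.23, 0.30 and 0.36, and the other 4 had medians of 0.20, 0.10 and 0.23. ERD10, the closest relative and chromosomal neighbour of COR47, and the CBF1, CBF2 and CBF3 genes had no probe set of their own name among those used here. Of 18 CBF and cold regulator entries only STZ (ZAT10), a zinc finger repressor, was measured, and it rose by 1.00 ± 0.19 at 8 h (adjusted p = 0.00134). Its values were 0.33 ± 0.18 at 1 d and -0.20 ± 0.19 at 3 d.

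Of 51 genes for LEA proteins at large 35 were measured, of which 2, 6 and 7 were called higher and 0, 0 and 1 lower at the 3 times. All probe sets had 3.36%, 9.73% and 15.9% higher and 2.59%, 15.5% and 21% lower. Apart from the 4 genes above 1, 3 and 4 of 31 were called higher at 8 h, 1 d and 3 d and 0, 0 and 1 lower. The median of those 31 was 0.06 log2 at each time, while that of all probe sets was within 0.03 of 0. AT2G23120 rose by 0.42 ± 0.12, 0.72 ± 0.11 and 0.59 ± 0.12 (SE; limma adjusted p = 0.0285, 2.93e-05 and 0.000274), the 8 h call being lost without any 1 of 5 arrays (adjusted p as high as 0.114) and with the larger spike-in set alone (0.114). AT2G46140, which was also among the genes most like COR15B, rose by 0.57 ± 0.19 at 1 d (adjusted p = 0.029), a call lost without any 1 of 6 arrays (up to 0.0761). AT3G53770 rose at 3 d by 0.19 ± 0.07 (adjusted p = 0.0426), lost without any 1 of 10 arrays (up to 0.134). AT2G44060 fell at 3 d, by 0.68 ± 0.13 (adjusted p = 0.000223).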

How the data were processed

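The values were deposited as log2 intensities per probe set, made by the authors with RMA per the submitters' processing notes, of a version that is not given in the sources used here. The values ran from 2.14 to 13.8, from which the log2 scale was inferred. Per the labels' protocols, RNA was taken from pools of 3 leaves and labelled after 1 round of amplification, in 3 independent biological replicates. Arrays were grouped by their titles. Of 22810 probe sets, 64 controls were left out, and 13513 of the others had 1 gene in the platform annotation, 503 several and 8730 none. Of those with 1 gene 13436 were matched to a RefSeq table of TAIR10.1, used for names only.

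With limma 3.58.1 in R 4.3.3, a mean per group was estimated from all 34 arrays (22 residual degrees of freedom, eBayes defaults, two-sided), with Benjamini-Hochberg adjustment over 22746 probe sets within each contrast and a threshold of 0.05. Averages over accessions weight them equally. The procedure was checked on simulated data. Python 3.11.15, pandas 2.3.3, numpy 2.4.6 and matplotlib 3.10.9 did the rest. The 4 genes, the lists and the tests were chosen with earlier results of these data known. The text names the 4 genes, the 3 genes most like each over the 12 group means, and, for each list and averaged time, the called genes with the largest changes, 5 at most. Alternatives were quantile normalization, median centring, leaving out dim probe sets (below 5.32 log2, the 40th percentile) or those with suffix _s_at or _x_at, weighted arrays, replicate number as a fixed or random block, spike-in set as a block or each set alone, eBayes in its trend and robust form, a fit on only the compared arrays, and leaving out each array or the Te 1 d and Te 3 d replicate 1 arrays. Leaving out the 4 arrays that stand apart was chosen after seeing the data. Promoter and protein sequences were not analysed here.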

Additional observations from a re-analysis of the deposited data

How the results depend on the processing

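Of 6028 values of the 4 genes over 48 alternatives, 5913 kept their side of the threshold, 67 lost a call, 48 gained one and 0 reversed a call. Within these groups, 111 values that were not called in the main fit changed sign. Of the 48 alternatives 34 left out a single array, often one outside the comparison. Most of the values were not called in the main fit and had no call to lose, so the 5913 say little about how firm the calls are. Within the smaller spike-in set alone (4 residual degrees of freedom) the averaged 1 d and 3 d changes were 0.523 and 0.431 for COR15B, 0.734 and 0.717 for COR47, and 0.303 and 0.32 for LTI30, none called, so the counts called were 0 and 0. With only the arrays compared, COR47 at 8 h stayed at 0.652 but was not called (count 0), the counts within accessions were 0 at 1 d and 3 at 3 d, and that of accessions within conditions was 0. It was 1 in the larger spike-in set, where fewer arrays entered, and 3 to 6 without single arrays. With quantile normalization LTI30 at 8 h was 0.358 and called (count 2), and the count of accessions averaged over conditions was 4. Without single arrays LTI30 at 8 h ranged from 0.18 to 0.369, its count from 1 to 2, the count within accessions at 8 h from 0 to 1, and that of accessions averaged over conditions from 2 to 4. COR47 at 1 d against 8 h was called with array weights (0.435), the random block (0.447), only the arrays compared (0.405) and without the 4 arrays that stand apart (0.43), and ranged from 0.364 to 0.447 without single arrays. The count at 1 d against 8 h was 2 in each of the first 3, 3 without the 4 arrays, where LTI30 was 0.223 and called, and 1 to 2 without single arrays. Within accessions at 1 d the count was 7 with the random block and 7 without the 4 arrays, against 4 with all. The cause of these shifts was not tested.

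Arrays of the same replicate number in different groups correlated in their deviations (median 0.201, 128 of 177 pairs over 0.1, lowest -0.243; for different numbers median -0.104). All 34 arrays correlated best, on average, with those of their own number, a hint from the data and not from the design. With the replicate block 7 of 128 values of the 4 genes gained a call and 0 lost one, among them COR47 at 1 d against 8 h (0.433, adjusted p = 0.0497; count 2) and COR47 within Rsch at 1 d (0.713, 0.0463) and 3 d (0.663, 0.0492), which the random block also called (0.0275 and 0.03). The other 4 were COR15B within Te at 1 d (0.79, 0.0431), COR15B in cold acclimated Rsch against Col (0.792, 0.0379), and COR15A and COR47 in Rsch against Col over conditions (0.14, 0.0411 and 0.369, 0.0254), and the count of accessions averaged over conditions was 4.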

Other observations

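The chromosomal neighbours of the 4 genes gave mixed values. AT2G42520, next to COR15B, rose by 1.07 log2 at 1 d (limma adjusted p = 0.000494) and 1.39 at 3 d (2.39e-05), and stood at 0.35 at 8 h (0.353). AT2G42560, on the other side of COR15A beyond 1 unmeasured gene, stood at 0.06, 0.04 and 0.03. AT1G20430, next to COR47, fell by 0.67 at 3 d (adjusted p = 0.0012). AT3G51000, the third gene from LTI30, fell by 0.44 at 1 d (0.000191) and by 0.85 at 3 d (5.73e-08), and AT3G50990, the second, stood at 0.12, 0.12 and 0.14.

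The 4 measured leaf mesophyll markers stood lower at 3 d, where RCA, which activates Rubisco, had a change of -0.93 log2 and LHCB4.2, an antenna protein of photosystem II, one of -2.61. The guard cell marker FMA stood at 5.39 log2 in cold acclimated leaves and had a change of -0.11 at 3 d (limma adjusted p = 0.3983). Of the phloem and flower markers none was measured.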
